A study of Mus musculus with 2 samples.

Results

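The genes described here mark macrophages and other leukocytes of the kidney. They were *Cd68*, *Emr1*, *Csf1r*, *C1qa*, *C1qb*, *C1qc*, *Lyz2*, *Cd74*, *Cd3e* and *Ptprc*, and every probe to a gene that carries one of these symbols in the scanner output was taken. This gave 13 probes for 10 genes, of 39416 probes and 31821 gene names in all. The probes were taken by symbol alone, but the list of symbols was written with earlier results of these data known.

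Macrophages live between the tubules of the healthy kidney, where they take up debris and sample the interstitial fluid. Their survival depends on the CSF1 receptor, and they are a main source of the complement protein C1q, which starts the classical complement pathway. T and B lymphocytes, dendritic cells and neutrophils are the other leukocytes that can be met in kidney tissue.

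Kidneys were taken from 2-month-old mice without treatment. The mice called knockout here were *Cnnm2* fl/fl;*Six2-Cre*, with both alleles of *Cnnm2* open to Cre, and the controls were *Cnnm2* +/+;*Six2-Cre*. Both genotypes carried the *Six2-Cre* transgene, which drives Cre in progenitors of the nephron epithelium. Leukocytes do not descend from these progenitors, so the deletion of *Cnnm2*, which encodes a magnesium transporter, is not aimed at the cells that the genes mark. The study compared these kidneys to look for expression changes that go with the low blood pressure of the knockout mice. RNA of both genotypes was hybridised together on 2 arrays of 2 colours, with the knockout in Cy5 on array 1 and in Cy3 on array 2.

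How many mice went into each RNA sample, and whether both arrays carried the same RNA, is not given in the sources used here. The dye-swapped pair therefore stands for 1 replicate per genotype. With 1 replicate there is no test between genotypes across mice, and each SD below is that of the 2 arrays. All values are log2 ratios of processed signal intensity, knockout over control, unless named otherwise. A gene with several probes was represented by its brightest probe. A gene was counted as changed where its mean log2 ratio was at least 1 in size, a 2-fold change, with the same direction on both arrays. Since whole kidneys were measured, fewer cells of a type and less RNA per cell cannot be told apart.

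The deleted gene was low in the knockout on both arrays, with log2 ratios for *Cnnm2* of -2.88 and -2.46 and a mean of -2.67 ± 0.30 (SD of 2 arrays). All 10 marker genes of kidney tubules, glomeruli and vessels had a signal well above background in all 4 channels. The comparison took in 19707 genes, each with at least 1 genotype well above background on both arrays. Across these genes, which share the same hybridisations, Pearson's r between the ratios of array 1 and array 2 was -0.51. The arrays' ratios thus differed in sign for 72.3% of genes. Between spots of the 245 probes printed 10 times on each array, the median SD of the log2 ratio was 0.039 on either array. The number of arrays limits the precision.

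All 13 probes of the macrophage and leukocyte genes were well above background in all 4 channels, with 0 saturated. Among the 78 pairs of these 60-base probes the longest run of identical bases was 8. This compares the probes with each other only, and hybridisation of a probe to transcripts of other genes was not tested. Probe sequences are shown for some of these genes, read 5′ to 3′ from the scanner output. For *Emr1* it is the dimmer probe, not the one that represents the gene. In the *C1qa* and *C1qb* probes, capitals mark 1 of the 2 longest runs of bases that both share, each 5 bases long. In the *Ptprc* probe, they mark the TAG stop triplet that ends the frame starting at the first base.
C1qa: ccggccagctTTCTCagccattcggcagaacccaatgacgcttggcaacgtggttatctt
C1qb: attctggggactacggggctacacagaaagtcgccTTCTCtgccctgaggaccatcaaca
Lyz2: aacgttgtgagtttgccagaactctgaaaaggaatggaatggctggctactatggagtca
Emr1: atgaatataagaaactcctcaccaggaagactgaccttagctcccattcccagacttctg
Ptprc: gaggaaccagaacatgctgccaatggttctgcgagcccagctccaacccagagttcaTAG

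The *C1qa* probe lies on the minus strand of the mm9 build at chr4:136452409-136452468, and the *C1qb* probe at chr4:136436578-136436637. The *C1qc* probe (chr4:136445766-136445825) lies between them, so that the probes of the 3 chains span 15891 bases. The *Lyz2* probe lies at chr10:116719175-116719234 and the *Ptprc* probe at chr1:139961083-139961142, both on the minus strand. The *Emr1* probe shown (A_55_P2018934) lies on the plus strand at chr17:57620350-57620409. The build's exon annotation was not used here, so the probes were not placed in coding or untranslated exons by annotation.

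None of the 10 genes passed the rule of size, against 0.315% of all genes tested as higher and 0.284% as lower. Their mean log2 ratios lay between -0.14 and 0.13, which is 0.908-fold to 1.09-fold, and 64.1% of all genes tested lay in the same range. The median of their means was -0.04, beside -0.01 over all genes tested. The plot of log2 ratios by array shows the array values on either side of 0 for 9 of the 10 genes.

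**Figure D1:**
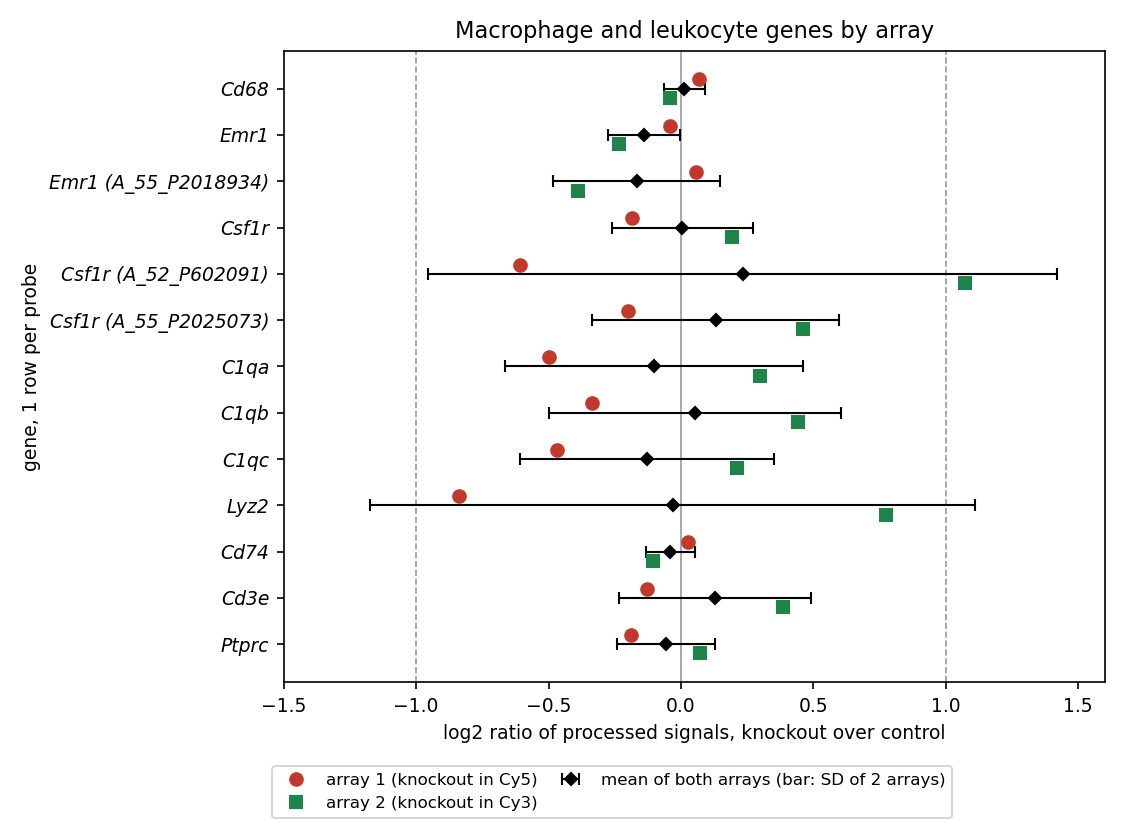
Log2 ratio of processed signals, knockout over control (x axis), for each of the 13 probes (y axis, probe ID given where it is not the brightest of its gene). Circles are array 1, squares array 2, and diamonds their mean with the SD of 2 arrays as bars, and dashed lines mark a 2-fold change. All diamonds lie between -0.17 and 0.23, and 12 of the 13 probes have opposite signs on the arrays.

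Only *Emr1* had the same direction on both arrays (lower in the knockout), that is 1 of 10 genes, against 27.7% of all genes tested in either direction, 15.6% as lower and 12.1% as higher. Of the 9 others, 7 were lower in the knockout on array 1 and higher on array 2, as were 33.6% of all genes tested, and *Cd68* and *Cd74* ran the other way, as did 38.7%. Whether the switch between the arrays goes with the dyes or with the RNA on each array cannot be told apart. With normexp background correction and loess normalisation, and without background correction, *Emr1* differed in sign between the arrays, and *Cd68* and *Cd74* were the genes with 1 direction. With background-subtracted signals centred on the median, it was *Csf1r*. The median contrast of red over green, in which a genotype difference cancels, was -0.22 on the log2 scale over the 10 genes and 0.02 over all genes tested. Array 1 alone gave a median ratio of -0.19 over the 10 genes, and array 2 alone gave 0.20.

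The general macrophage genes are *Cd68*, *Emr1* and *Csf1r*. *Cd68* encodes macrosialin, a glycoprotein of macrophage lysosomes. On array 1 its processed signal was 15.6 for the knockout and 14.8 for the control, and on array 2 it was 14.1 and 14.5. These signals overlap between the genotypes and are close to the lowest signals called well above background, which were between 7.64 and 11.3 over the 4 channels. The raw signal of this probe was 1.66 to 2.27 times its local background. *Cd68* thus had log2 ratios of 0.07 and -0.04 (mean 0.01 ± 0.08, SD of 2 arrays).

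*Emr1*, now named *Adgre1*, encodes F4/80, the surface receptor by which mouse macrophages are usually identified. It has a pair of probes. The brighter one (A_55_P2144386) gave signals of 276 in the knockout and 285 in the control on array 1, and 229 and 269.6 on array 2. The knockout was the lower of the genotypes on each array, but its signal on array 1 was above that of the control on array 2. The log2 ratios were -0.04 and -0.23, with a mean of -0.14 ± 0.14 (SD of 2 arrays), so that the mean was about as large as its SD. The other *Emr1* probe, the one printed above, gave log2 ratios of 0.06 and -0.39 and a mean of -0.17 ± 0.32, and thus differed in sign between the arrays. Among all 13 probes, the brighter *Emr1* probe was the one with a single direction.

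*Csf1r* encodes the receptor for CSF1 and IL-34, the growth factors that keep macrophages alive. Its brightest probe (A_55_P2025078) gave signals of 7760 in the knockout and 8815 in the control on array 1, and 7085 and 6202 on array 2. The log2 ratios were -0.18 and 0.19, with a mean of 0.00 ± 0.27 (SD of 2 arrays). A_55_P2025073 gave -0.20 and 0.46, with a mean of 0.13 ± 0.47. A_52_P602091 gave -0.61 and 1.07, with a mean of 0.23 ± 1.19, the widest gap between the arrays among the 13 probes. The 3 probes of *Csf1r* thus shared the order of the arrays and differed in the size of the gap.

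The C1q genes encode the 3 chains A, B and C of one protein, and they behaved alike. *C1qa* gave signals of 566 in the knockout and 800.1 in the control on array 1, and 687 and 559 on array 2. *C1qb* gave 443 and 559.8 on array 1, and 579 and 427 on array 2. *C1qc*, whose probe is printed 10 times, gave mean signals of 618 and 855 on array 1, and 698 and 603 on array 2. For each chain, the channel labelled with Cy5 was the dimmer one by processed signal on both arrays, whichever genotype it held. By raw signal, before correction for background and dye, the Cy5 channel was the brighter one for each chain on both arrays. This was not particular to C1q, since it also held for the brightest probes of *Cd74*, *Csf1r*, *Emr1*, *Cd3e* and *Ptprc*. For *Cd68* and *Lyz2* it held on array 1 only. The log2 ratios of *C1qa*, *C1qb* and *C1qc* were -0.50, -0.34 and -0.47 on array 1. On array 2 they were 0.30, 0.44 and 0.21. The means were -0.10 ± 0.56, 0.05 ± 0.55 and -0.13 ± 0.48 (SD of 2 arrays), each smaller than its SD. The order of the arrays, lower in the knockout on array 1 and higher on array 2, was the same for the 3 chains under each of the 9 alternatives computed with both arrays. Several of these alternatives left the values of the 3 chains unchanged and so could not differ.

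The spots of *C1qc* show how tightly a single array held its ratio. On array 1 the lowest of the 10 spots was -0.50, the median -0.47 and the highest -0.41 (SD of spots 0.027). On array 2 they were 0.14, 0.22 and 0.24 (SD of spots 0.031). The spots of the arrays did not overlap, and the distance between the arrays was many times the spread between spots. The contrast of red over green was -0.40 for *C1qa*, -0.39 for *C1qb* and -0.34 for *C1qc*, closer to each other than the means were.

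*Lyz2* encodes lysozyme M, an enzyme of macrophages and neutrophils that cleaves bacterial cell walls. Its signals were 86.0 in the knockout and 154 in the control on array 1, and 137 and 80.1 on array 2. On array 1 the knockout was the dimmer genotype, and on array 2 the control was. The log2 ratios of *Lyz2* were -0.84 and 0.77, with a mean of -0.03 ± 1.14 (SD of 2 arrays). Its contrast between the dyes, -0.81, was larger in size than that of 94.9% of the genes tested, whereas its mean was larger than that of 18.4%.

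*Cd74* encodes the invariant chain, which guides class II molecules in dendritic cells, B cells and activated macrophages. Its signals were 9124 in the knockout and 8967 in the control on array 1, and 8689 and 9343 on array 2. The log2 ratios were 0.03 and -0.10, with a mean of -0.04 ± 0.09 (SD of 2 arrays). After *Cd68*, *Cd74* had the smallest gap between the arrays among the 10 genes.

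The remaining genes reach beyond the macrophages. *Cd3e* encodes a signalling chain of the T cell receptor complex. Its signals were 424 in the knockout and 463 in the control on array 1, and 426 and 326 on array 2, with log2 ratios of -0.13 and 0.38 and a mean of 0.13 ± 0.36 (SD of 2 arrays). *Ptprc* encodes CD45, the phosphatase on the surface of all white blood cells. Its signals were 76.6 and 87.3 on array 1, and 93.7 and 89.1 on array 2, with log2 ratios of -0.19 and 0.07 and a mean of -0.06 ± 0.18. Neither mean reached the size of its SD, and the genotypes' signals overlapped.

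The 4 channels of each probe can also be set side by side. The signals were normalised between dyes within each array but not between arrays, and the median log2 signal over the genes tested was lower on array 2 by a difference of -0.22. By the brightest probe of each gene, both Cy5 signals lay below both Cy3 signals in 5 of the 10 genes, against 18.4% of all genes tested, and above them in 1 gene (*Cd74*), against 24.4%. Counted over probes, some of which share a gene, both Cy5 signals were the lower ones in 7 of 13. These were the probes of *C1qa*, *C1qb*, *C1qc*, *Lyz2* and *Cd3e* and the dimmer probes of *Csf1r*. In the *Cd74* probe and the dimmer *Emr1* probe both Cy5 signals lay above both Cy3 signals. In 0 of the 10 genes, and 0 of the 13 probes, did both knockout signals lie below both control signals, or above them, against 5.41% and 5.88% of all genes tested.

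**Figure D2:**
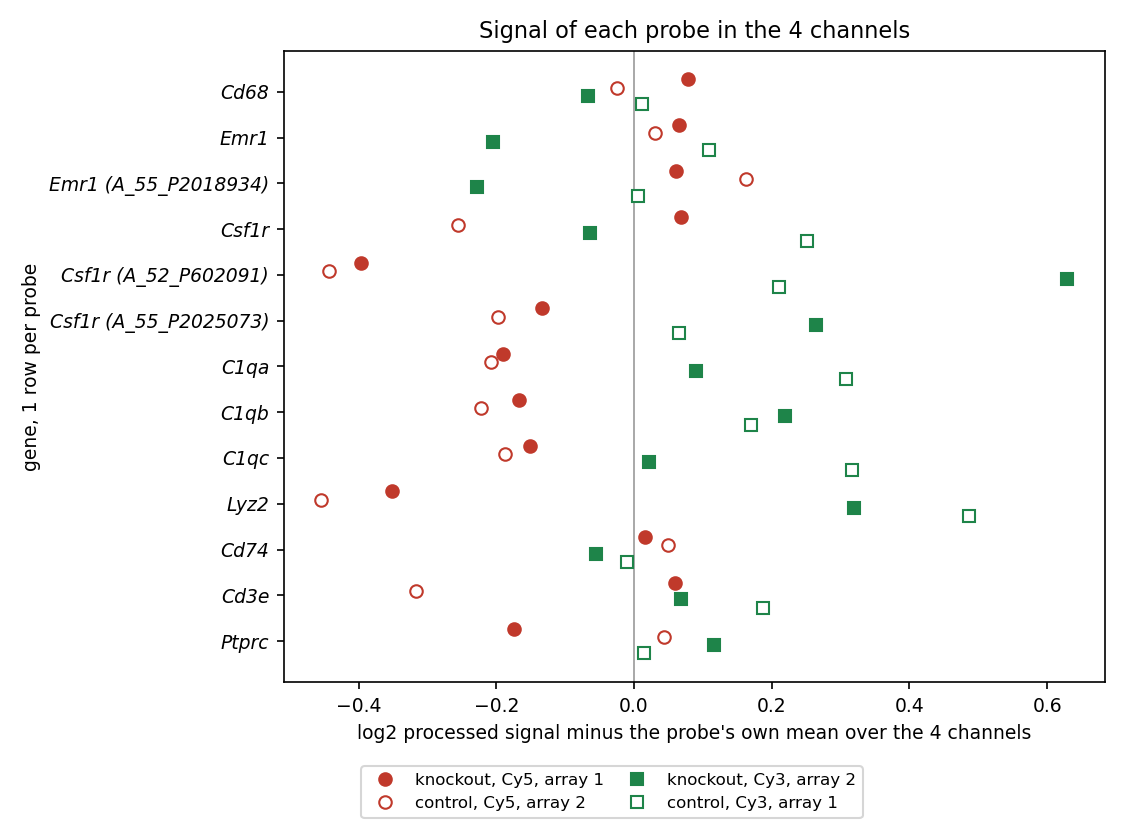
Log2 processed signal of each of the 13 probes in the 4 channels (x axis), after the probe's own mean over these channels was subtracted, so that probes are not compared in level. Filled symbols are knockout, open symbols control, circles Cy5 and squares Cy3. In 7 probes both circles lie to the left of both squares, and in no probe do the filled symbols lie wholly to one side of the open ones.

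In the plot of array 2 against array 1, the 9 genes other than *Emr1* had opposite ratios, as most genes tested did, and *Cnnm2* lay near the diagonal of equal ratios.

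**Figure D3:**
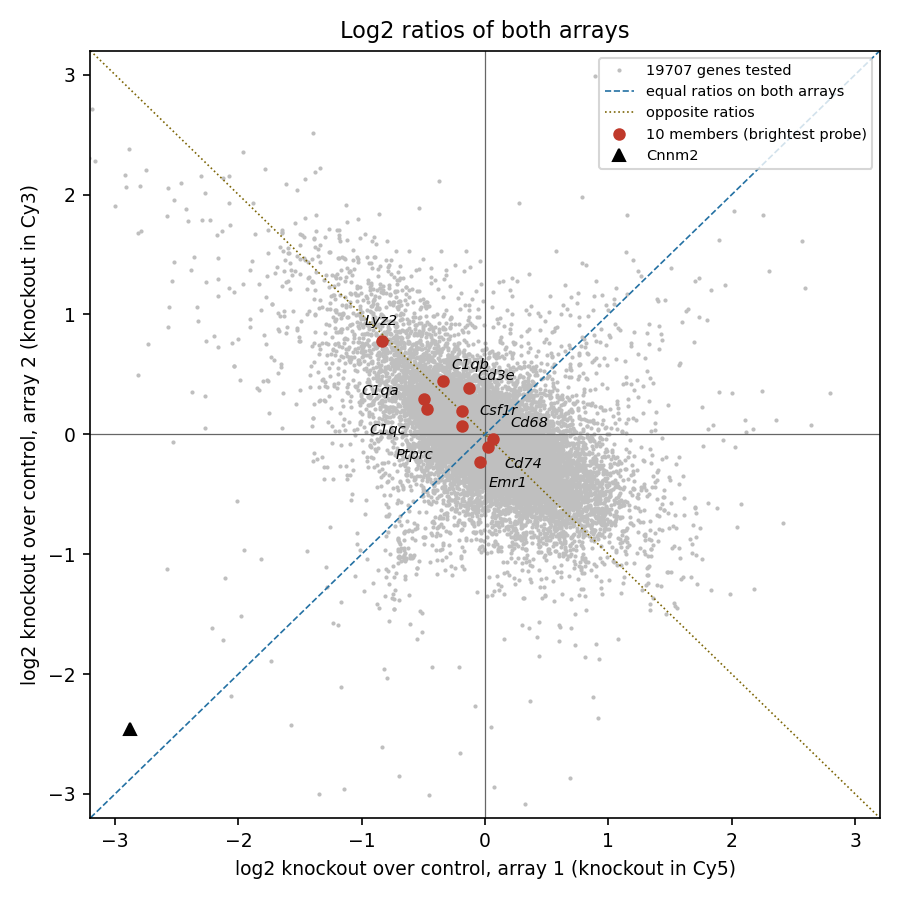
Log2 ratio of knockout over control on array 2 (y axis) against array 1 (x axis) for the 19707 genes tested (grey, 20 of which lie outside the axes), the 10 macrophage and leukocyte genes (circles) and Cnnm2 (triangle). Lyz2 lies at -0.84 and 0.77, the C1q genes between -0.50 and -0.34 on array 1, and Emr1 alone in the quadrant of lower ratios on both arrays.

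Other genes of the same cells were taken from lists written with earlier results of these data known. The counts of each list stand beside 15.6% lower and 12.1% higher on both arrays over all genes tested. Of 24 further genes of mononuclear phagocytes, 20 were tested, of which 2 were higher on both arrays, 7 were lower on both and 11 differed in sign. Their median mean ratio was -0.05, and 0 passed the rule of size. *Ccr2*, the chemokine receptor of inflammatory monocytes, had log2 ratios of -0.19 and -0.74. *Ctss*, a lysosomal protease of antigen-presenting cells, had -0.35 and -0.17. *Ms4a7* had -0.34 and -0.14. These are small ratios with a single direction, and their means were -0.47 ± 0.39, -0.26 ± 0.13 and -0.24 ± 0.14 (SD of 2 arrays). The 2 genes higher on both arrays were *Aif1* (0.01 and 0.13) and *Vsig4* (0.79 and 0.51). The mean of *Vsig4*, 0.65, was the highest of the list, but its control signal on array 1 was not well above background.

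Among lymphocyte genes beside *Cd3e*, 15 of 17 genes of T and NK cells were tested, of which 0 were higher and 5 lower on both arrays, with a median of -0.08. *Cd3g*, another chain of the T cell receptor complex, had log2 ratios of -0.60 and -0.34, and so did not share the positive mean of *Cd3e*. *Zap70*, a kinase of T cell receptor signalling, had -0.03 and -0.38, and *Gzma*, a granule protease of killer cells, had -0.24 and -0.17. Of 10 genes of B and plasma cells, 6 were tested, with 1 higher, 2 lower and a median of -0.09. *Ms4a1*, which encodes the B cell surface protein CD20, was lower (-0.25 and -0.26), and *Cd79b*, of the B cell receptor, was higher (0.18 and 0.05). None of the lymphocyte genes passed the rule of size.

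Of 11 neutrophil genes, 7 were tested, with 2 higher, 1 lower and a median of 0.08. *S100a8*, a calcium-binding protein of neutrophils, had log2 ratios of -0.48 and -0.09. *Camp*, an antimicrobial peptide, had 0.40 and 0.10, and *Csf3r*, the G-CSF receptor, had 0.09 and 0.08. The signals of *Camp* were weak, between 23.3 and 32.1, and those of *S100a8* lay between 67.0 and 114. The *Csf3r* signals were far higher, between 24362.5 and 28244, and whether its probe also binds other transcripts was not tested. Of 13 genes that all leukocytes share with *Ptprc*, 13 were tested, with 1 higher and 6 lower on both arrays and a median of -0.13. *Cd53*, a tetraspanin, had -0.46 and -0.14, from weak signals of 15.7 in the knockout and 21.6 in the control on array 1. *Vav1*, a signalling protein, had -0.50 and -0.06, and *Selplg*, a ligand of selectins, had -0.26 and -0.28.

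Taken once each, the 68 genes of these lists and of the class II list below included 21 that were lower on both arrays (30.9%) and 6 that were higher (8.82%), beside the 15.6% and 12.1% of all genes tested. Their median was -0.07, and 0 passed the rule of size. With normexp and loess, 17 were lower and 9 higher on both arrays, with a median of 0.00, beside 0.01 over all genes tested. In that setting 27.6% of all genes tested had 1 direction on both arrays, a share that was not split into lower and higher. The means of several named genes were then smaller, -0.15 for *Ccr2*, -0.12 for *Ms4a7*, -0.08 for *Cd3g*, -0.07 for *Gzma*, -0.06 for *Ms4a1* and -0.03 for *Cd53*. Among the higher genes, the mean of *Camp* went from 0.25 to 0.06. Of the 10 genes described above, 1 was lower on both arrays and 0 were higher.

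The partners of *Cd74* are the class II molecules and their helpers. Of 9 such genes, 8 were tested, and in 0 of them did the arrays share a direction. By a choice made after their values were seen, *H2-Aa* (-0.38 and 0.22), *H2-Ab1* (-0.53 and 0.24) and *H2-Eb1* (-0.30 and 0.08), which encode chains of the class II molecules, are given as examples. They ran lower on array 1 and higher on array 2, as the C1q genes did, whereas *Cd74* did not. Of the 8 genes tested, 5 ran in this order and 3 ran the other way, as *Cd74* did. H2 genes resemble each other in sequence, and hybridisation across them was not tested.

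Of 12 complement genes that act with or after C1q, 10 were tested, with 3 higher and 3 lower on both arrays and a median of -0.04. *Cfd*, factor D of the alternative pathway, had log2 ratios of -0.23 and -0.32. *Serping1*, the inhibitor of the C1 complex, had 0.27 and 0.02. None of these genes passed the rule of size.

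Among 13 ligands and chemokines that act on macrophages or come from them, 11 were tested, with 2 higher and 5 lower on both arrays and a median of -0.16. *Ccl3*, which encodes the chemokine MIP-1α, was the one gene of all these lists that passed the rule of size. Its signals were 19.3 in the knockout and 34.5 in the control on array 1, and 2.58 and 15.7 on array 2. The control was well above background on both arrays and the knockout on 1 of the 2 arrays. The log2 ratios of *Ccl3* were -0.84 and -2.61, with a mean of -1.72 ± 1.25 (SD of 2 arrays). The ratio of array 2, and with it the mean, rests on a knockout signal not well above background, and the ratio of array 1 alone did not reach the rule. With normexp background correction and loess normalisation the mean was -0.14, and without background correction it was -0.47.

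*Ccl4*, which encodes the related chemokine MIP-1β, was well above background in all 4 channels. Its signals were 46.8 in the knockout and 75.9 in the control on array 1, and 36.0 and 59.3 on array 2. The log2 ratios of *Ccl4* were -0.70 and -0.72, with a mean of -0.71 ± 0.02 (SD of 2 arrays), which did not reach the rule of size. With normexp and loess its mean was -0.18. *Il34*, a ligand of CSF1R made by tubule cells, was higher in the knockout on both arrays (0.39 and 0.30), and *Cxcl12*, a chemokine of stromal cells, was lower (-0.53 and -0.14).

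Markers of other cells in the same samples were read beside these values. Of 6 red blood cell genes, 5 were tested, with 0 higher and 3 lower on both arrays and a median of -0.21. *Hbb-b2* (-0.14 and -0.30) and *Hbb-b1* (-0.29 and -0.13), globin genes of similar sequence that the probes may not separate, and *Slc4a1* (-0.15 and -0.21), the anion exchanger of the red cell membrane, were lower. With background-subtracted signals centred on the median, 0 of the 5 had 1 direction. The mean ratios of all 5 lay between -0.22 and -0.11. The part of blood left in the kidneys in the values of the leukocyte genes was not tested. Of the 10 kidney markers, 0 were higher and 4 lower on both arrays, with a median of -0.09, and among these were *Nphs1* (-0.11 and -0.53) of podocytes and *Kdr* (-0.35 and -0.07) of endothelium. Thus 60% of the red cell genes and 40% of the kidney markers were lower on both arrays. The share was 30.9% in the leukocyte and class II lists and 15.6% over all genes tested. A larger lower share was thus not particular to the leukocyte genes.

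**Figure D4:**
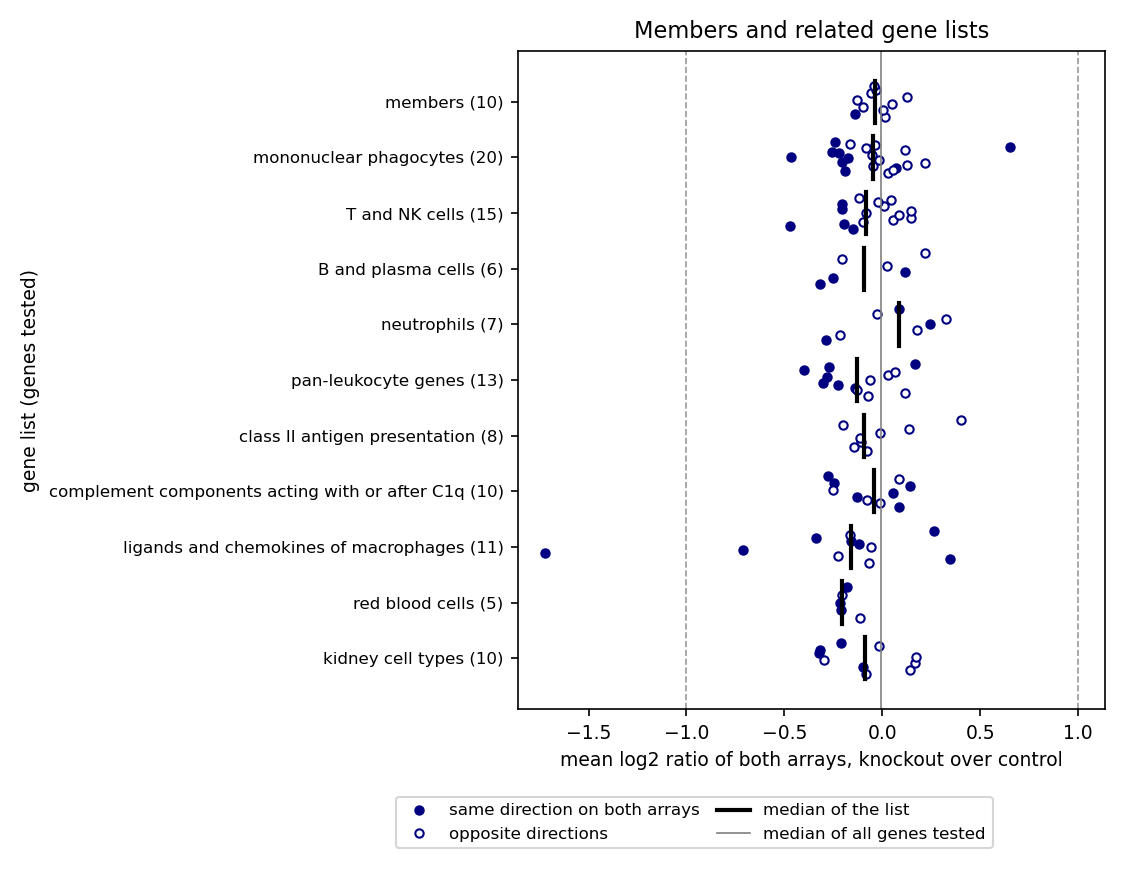
Mean log2 ratio of both arrays, knockout over control (x axis), for the genes tested of each list (y axis, number of genes in parentheses). Filled circles are genes with the same direction on both arrays, open circles genes with opposite directions, thick bars the list medians, the thin line the median of all genes tested and the dashed lines a 2-fold change. Ccl3, at -1.72, is the one point beyond a dashed line, and the 10 macrophage and leukocyte genes lie between -0.14 and 0.13.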

How the data were processed

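Scanner output of both arrays, 43020 gene spots each, was deposited by the authors from Agilent Feature Extraction (10.7.3.1 in the file headers, 10.5.1.1 in the submitters' processing notes). The deposited signal intensity is raw, background-subtracted or processed, that is corrected for background and dye within an array. The deposited value table of the series holds each spot's log10 ratio, within 0.00492 of the scanner's, turned to knockout over control. Probe positions are those of the files (mm9).

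Processed signals were taken to log2 and turned by the dye labels. Control spots and marked spots (141 and 175) were left out, and spots of a probe were averaged. Alternatives were normexp (offset 50) or no background correction with loess (limma 3.58.1), background-subtracted signals (floor 1) centred on the median, median-centred ratios, the value table, marked spots kept, the median over probes, other limits on dim probes, each array alone, a 1.5-fold limit, 2-fold on each array, and the methods' t-test (threshold 0.1 and mean fold above 2).

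The members and lists were chosen with earlier results of these data known. Named were all members, and of each list the genes past the rule of size and up to 3 more with the largest mean among those with 1 direction and well above background in both genotypes; some of these are not reported here. *Spi1* of the phagocyte list was found by its older name. Code was tested on simulated data. Python 3.11.15, numpy 2.4.6, pandas 2.3.3, scipy 1.17.1 and R 4.3.3 were used.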

Additional observations from a re-analysis of the deposited data

How the results depend on the processing

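The count of 0 of 10 genes past the rule of size was the same under the processing alternatives, with each array alone and with a 1.5-fold limit. It was also 0 with 2-fold on each array and with the methods' t-test, but these add a condition to a mean fold that no member reached and so could not differ. Marked spots kept and the other limits on dim probes left every value of the members unchanged, so these could not differ either. The value table holds the scanner's own ratios. The count of genes with 1 direction on both arrays was 1 (*Emr1*) in most settings, but 2 (*Cd68* and *Cd74*) with normexp and loess, 2 without background correction, and 0 with the median over probes. With subtracted signals it was 1, *Csf1r* in place of *Emr1*. The cause was not tested. The median of the members' means was between -0.04 and -0.01 with both arrays, and turned from -0.19 to 0.20 between the arrays alone. The 90 means of the 10 genes under the 9 alternatives with both arrays lay between -0.15 and 0.14 and within the SD of the arrays of the values given above. Over all genes, normexp with loess left 7 genes higher and 8 lower in place of 62 and 56, no background correction 12 and 12, the limit set in both genotypes 37 and 27, and no limit on dim probes 232 and 179. *Ccl3* passed the rule of size in 6 of 9 alternatives with both arrays and was left out as untested in 1 of them (the limit set in both genotypes). Most of these 6 left its ratios unchanged or nearly so, and subtracted signals gave a mean of -2.40. Normexp with loess gave -0.14 and no background correction -0.47, and neither passed. *Ccl3* passed on array 2 but not on array 1 alone. The 28 genes that the naming rule picked from the lists kept the sign of their mean in all 251 values under alternatives, though 10 genes differed in sign between the arrays in 1 setting each, and with normexp and loess 26 means were smaller in size, 15 of them by over 1.5 times. No paired analysis was possible because each genotype has 1 replicate, beyond the methods' t-test, which pairs the channels of each array and treats the dye swap as replicates. The weak signals of *Cd68* limit what its ratio can show.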

Other observations

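A further probe on the arrays carries the Ensembl transcript name ENSMUST00000018918, which the array's own annotation describes as macrosialin, the product of *Cd68*. It lies outside the rule by which the genes were chosen and was looked up after the values of *Cd68* were seen. Its signals were 472 in the knockout and 470.1 in the control on array 1, and 444 and 455 on array 2, in contrast to signals near background from the probe named *Cd68*. The log2 ratios were 0.00 and -0.04, with a mean of -0.02 ± 0.03 (SD of 2 arrays).

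*Lyz1*, the close relative of *Lyz2* on chromosome 10 that serves in Paneth cells of the gut, was looked up after the values of *Lyz2* were seen. The longest run of bases that both probes share is 6, but whether either probe also binds the transcript of the other gene was not tested. The signals of *Lyz1* were 787 in the knockout and 1138 in the control on array 1, and 746 and 652 on array 2. Its log2 ratios, -0.53 and 0.20 (mean -0.17 ± 0.51, SD of 2 arrays), had the same signs on the arrays as those of *Lyz2*.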
